A study of Mus musculus with 24 samples.

Results

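The 7 genes described here are Reg1, Reg3a, Reg3b, Reg3g and Reg4, secreted lectins of the Reg family, with Retnlb, which encodes the secreted resistin-like protein RELMβ, and Lypd8, which encodes a Ly6/uPAR-domain protein of the colonic epithelium. They were chosen by name, with no threshold on measured values, matched by Ensembl identifier, and are 7 of the 39179 genes listed in the mouse RNA-seq counts. All 7 were found and all 7 passed the filter on low counts, which left 20502 genes for testing. Reg3a passed only through groups other than the wild-type ones, where no library held more than 3 of its reads. The main counts of members called are therefore given for the other 6, and tests of Reg3a are a description only.

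The study sequenced polyadenylated RNA of dissected mouse gut in 24 libraries, 3 in each of 8 groups, to ask how loss of the homeobox factor Cdx2, which sets intestinal identity, changes gut tissue with and without an Apc mutation. Untreated wild-type (WT) mice gave cecum and stomach, and untreated Cdx2+/- mice gave cecum. Mice of genotype Cdx2f/f::AhCreERT, given tamoxifen and bnaphthoflavone, gave 2 sets of cecum called Cdx2-/- (replicates 1 to 3 are set 1 and replicates 4 to 6 set 2, which carry different library codes). Mice of genotype Cdx2f/f::AhCreERT::ApcD14/+ with the same treatment gave cecum and ileum called Cdx2-/-;Apc+/-, and untreated mice gave ileum called Apc+/-. In the treated mice CreERT stands under the CYP1A1 (Ah) promoter, so recombination need not reach every cell, and all treated groups are also the groups with deleted Cdx2, so that treatment and deletion cannot be told apart. The Apc+/- ileum labels do not match each other: replicate 2 is given as ApcD14/+, while replicates 1 and 3 carry the floxed genotype in one field and a non-floxed Cdx2 allele in another. Ages are not given. No label says that the replicates are different mice, and the spread that the tests use could therefore be technical.

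Reg3b and Reg3g are lectins that epithelial cells release into the lumen, where Reg3g kills Gram-positive bacteria; both are known as genes switched on by microbes and by interleukin-22 acting through STAT3, as part of a family clustered on mouse chromosome 6 with Reg1 and Reg3a. Reg4 is made by secretory cells of the colonic crypt. Retnlb is a goblet cell product induced by bacteria and by type 2 cytokines, and Lypd8 is shed from colonic surface cells and binds flagella, which keeps motile bacteria away from the inner mucus layer.

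On GRCm38, with gene models of GENCODE vM21, 4 of the Reg genes lie together on chromosome 6: Reg3b at chr6:78370657-78373466 on the plus strand, Reg3a at chr6:78380709-78383827 (plus), Reg1 at chr6:78422711-78428667 (plus) and Reg3g at chr6:78466269-78468872 on the minus strand. Reg4 lies apart at chr3:98222156-98236748 (plus), Lypd8 at chr11:58379043-58390728 (plus) and Retnlb at chr16:48816856-48818892 (plus). All 7 are protein-coding, and no exon of theirs overlaps an exon of another gene. Of all 50-base windows of each gene's longest transcript, 3.74% of those of Reg1 and 0% of those of the other 6 also occur in another gene's transcripts.

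RefSeq promoter windows matched 6 of the 7 genes; Retnlb is named only. The 3 Reg3 windows are shown because Reg3b and Reg3g parted most clearly in the counts, while Reg3a had 3 reads in the WT cecum libraries together and 133 in those of Cdx2-/- cecum. Each is the 250 bases before the RefSeq transcription start, 5′ to 3′ on the gene's strand (build GRCm38.p6; Reg3b chr6:78370635-78370884 plus, Reg3g chr6:78468875-78469124 minus, Reg3a chr6:78380459-78380708 plus). GENCODE starts some Reg3b transcripts inside this window. Capitals mark matches, on either strand, to TATAAA, to the CDX-type motif TTTATG and to the STAT-type motif TTCNNNGAA.
Reg3b promoter: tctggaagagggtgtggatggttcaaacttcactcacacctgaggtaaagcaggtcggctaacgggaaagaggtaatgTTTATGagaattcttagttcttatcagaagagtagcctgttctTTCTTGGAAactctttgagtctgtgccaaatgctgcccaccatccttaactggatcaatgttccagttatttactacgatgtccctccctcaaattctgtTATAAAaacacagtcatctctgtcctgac
Reg3g promoter: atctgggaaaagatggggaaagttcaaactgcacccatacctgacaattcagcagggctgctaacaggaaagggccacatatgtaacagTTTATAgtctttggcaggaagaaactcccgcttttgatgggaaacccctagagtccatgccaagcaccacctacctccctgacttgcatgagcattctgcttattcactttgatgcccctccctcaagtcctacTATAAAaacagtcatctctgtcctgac
Reg3a promoter: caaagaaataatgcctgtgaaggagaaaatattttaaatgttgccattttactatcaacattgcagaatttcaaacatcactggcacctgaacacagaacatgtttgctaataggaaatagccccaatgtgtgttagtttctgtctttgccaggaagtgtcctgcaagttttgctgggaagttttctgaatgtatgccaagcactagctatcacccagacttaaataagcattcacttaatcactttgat
The Reg3b window held TTTATG at position -172, TTCTTGGAA at -129 and TATAAA at -29 from the start. The Reg3g window held TATAAA at -27 and its reverse complement, TTTATA, at -161, and neither TTTATG nor TTCNNNGAA. The Reg3a window held none of these motifs. TTTATG was the only CDX-type form searched. Among 32851 mouse promoter windows of the same length, TTTATG occurred in 10.8%, TTCNNNGAA in 7.02% and TATAAA in 12.4%. The core of the aryl hydrocarbon receptor motif, GCGTG, which binds the receptor that bnaphthoflavone activates, occurred in 28.2% of windows and in none of the members' windows. Aligned to each other, the Reg3b and Reg3g windows were identical at 70.0% of 247 positions, Reg3a and Reg3g at 71.9% of 199, and Reg3a and Reg3b at 69.4% of 196. The other pairs of members ranged from 55.8% to 68.1%. A match is a description of the sequence, and no binding was measured.

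The libraries held 36567685 to 87975179 reads assigned to genes (median 53976073), and all levels below are CPM, counts scaled to library size, after TMM normalisation. Cdx2 itself stood at 408 to 663 CPM in WT cecum, 116 to 118 in Cdx2+/- cecum, 130 to 349 in Cdx2-/- cecum and 122 to 151 in Cdx2-/-;Apc+/- cecum. In ileum it stood at 78.9, 178 and 36.9 CPM in Cdx2-/-;Apc+/- (mean 97.8) and 90.1, 63.3 and 112 in untreated Apc+/- (mean 88.6). The ileum groups overlapped, and their means showed no drop in Cdx2 reads, but the Cdx2-/-;Apc+/- mean rests on replicate 2 at 178 CPM. Of its remaining libraries, that at 78.9 CPM lay within the Apc+/- range and that at 36.9 CPM below it. Which exons are deleted is not stated, so these reads check the deletion only in part. Set 1 of the Cdx2-/- cecum stood apart in 2 ways. Its replicates 2 and 3 were much closer to each other than any other pair (chi-square per degree of freedom 7.03 against at least 52.99), and it was the only set with Xist, at 666 to 816 CPM against at most 2.19 elsewhere. WT cecum libraries differed in the stomach gene Gkn2 (86.7, 247 and 1.04 CPM), and replicate 2 of the Cdx2-/-;Apc+/- ileum held 2016 CPM of the ileal gene Fabp6 against 17.9 and 1.34 in the other replicates. Results that rest on one of these libraries are given with and without it.

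In WT cecum the dominant member was Lypd8. It stood at 21734, 30018 and 10946 CPM, 1.03% to 2.14% of all gene reads, and ranked 2 to 4 among all genes by reads. Reg4 followed at 261, 133 and 740 CPM and Retnlb at 183, 53.1 and 160 CPM. These 3 were the most abundant members. Reg3b stood at 6.86, 12.4 and 25.2 CPM, Reg3g at 7.07, 9.89 and 10.2 CPM, and Reg1 at 0.238, 0.105 and 0.0743 CPM. Reg3a had 3 reads in the 3 WT cecum libraries together and 0 in WT stomach. Among reads of the 5 Reg genes, Reg4 held 85.6% to 95.4% in WT cecum. Per kilobase of coding sequence, the mean level fell in the order Lypd8, Reg4, Retnlb, Reg3b, Reg3g, Reg1 and Reg3a, and the ranges of Reg4 and Retnlb overlapped, as did those of Reg3b and Reg3g.

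**Figure D1:**
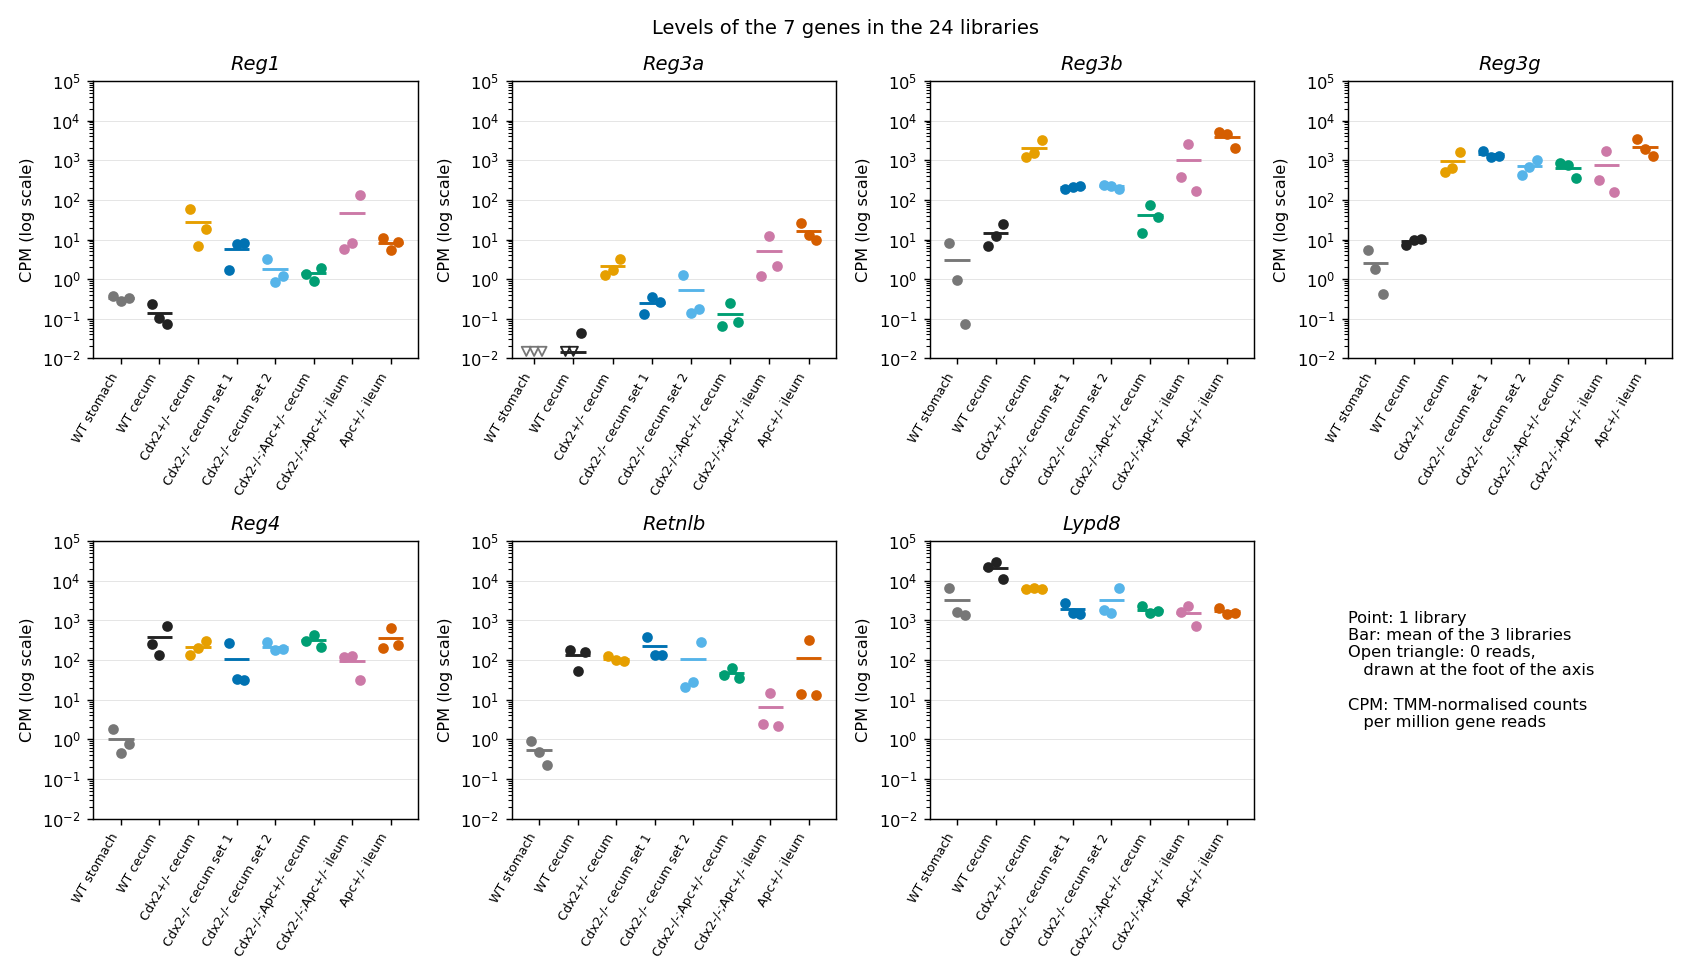
Level of each member (TMM-normalised CPM, log axis) in each of the 24 libraries, by group; points are libraries, bars are means of 3 and open triangles are libraries with 0 reads. Lypd8 is highest in the 3 WT cecum libraries (10946 to 30018 CPM), and Reg3b and Reg3g are low in WT cecum and WT stomach and high in every Cdx2-deficient cecum group and in ileum, except that Reg3b in Cdx2-/-;Apc+/- cecum reaches down to 14.8 CPM.

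In the cecum with conditional deletion of both Cdx2 alleles, Reg3g, Reg3b and Reg1 rose and Lypd8 fell, while Reg3a rested on few reads. Reg3g, the Gram-positive-killing lectin, stood between 424 and 1759 CPM (median 1112) in the 6 Cdx2-/- cecum libraries. Every one of them was above every WT cecum library, and the log2 change was 6.78 ± 0.95 (SE), a 109.9-fold rise (edgeR quasi-likelihood test, adjusted p = 8.1e-06). Reg3b, another lectin of the same subfamily, stood between 193 and 242 CPM (median 216.7, mean 213.8 ± 18.4 SD, n = 6). Its groups did not overlap either, and it rose 14.4-fold (log2 change 3.85 ± 1.05, adjusted p = 0.0044). Reg1, named for its link to regenerating pancreatic islets, stood between 0.859 and 8.02 CPM (median 2.45) and rose 24.2-fold (log2 change 4.60 ± 1.14, adjusted p = 0.0022). Reg3a held very few reads: 133 in 6 libraries against 3 in the WT cecum. The ratio of pooled CPM was 18.8, with an exact 95% counting interval of 6.29 to 92.3. Its edgeR call as higher (adjusted p = 0.011) is a description, since it passed the filter only through groups other than the wild-type ones. Of the 6 members other than Reg3a, 3 were called higher and 1 lower, beside 26.9% and 26.2% of all tested genes (53.1% either way), and their median log2 change was 2.04 against 0.0393 over all genes.

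Lypd8, the flagellum-binding protein, stood between 1491 and 6777 CPM (median 1665) in Cdx2-/- cecum. All 6 libraries were below the lowest WT cecum library, and it fell 8.20-fold (log2 change -3.04 ± 0.50, adjusted p = 4.6e-05). The colonic secretory products did not pass the test. Reg4 stood between 31.1 and 287 CPM (median 181) with a log2 difference of -1.30 ± 0.64 (adjusted p = 0.095), and Retnlb between 20.4 and 389 CPM (median 137) with 0.24 ± 0.93 (adjusted p = 0.85). The 95% intervals of these differences, -2.55 to -0.05 and -1.58 to 2.05, leave several-fold changes possible. They use normal quantiles of the SE and are narrower than the F test implies. The Reg4 interval thus leaves out 0 although its unadjusted p was 0.056 (edgeR). Without set 1 replicate 1, where Reg4 stood at 264 CPM against 33.4 and 31.1 in replicates 2 and 3, the Reg4 difference was -2.18 and passed (adjusted p = 0.0028). Without WT cecum replicate 3, where Reg4 stood at 740 CPM, it was -0.36 (adjusted p = 0.69). Reg3g, Reg3b, Reg1 and Lypd8 kept their calls without any one library, in set 1 alone and in set 2 alone. Fewer cells of a type and less RNA per cell cannot be told apart in these tissue samples.

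**Figure D2:**
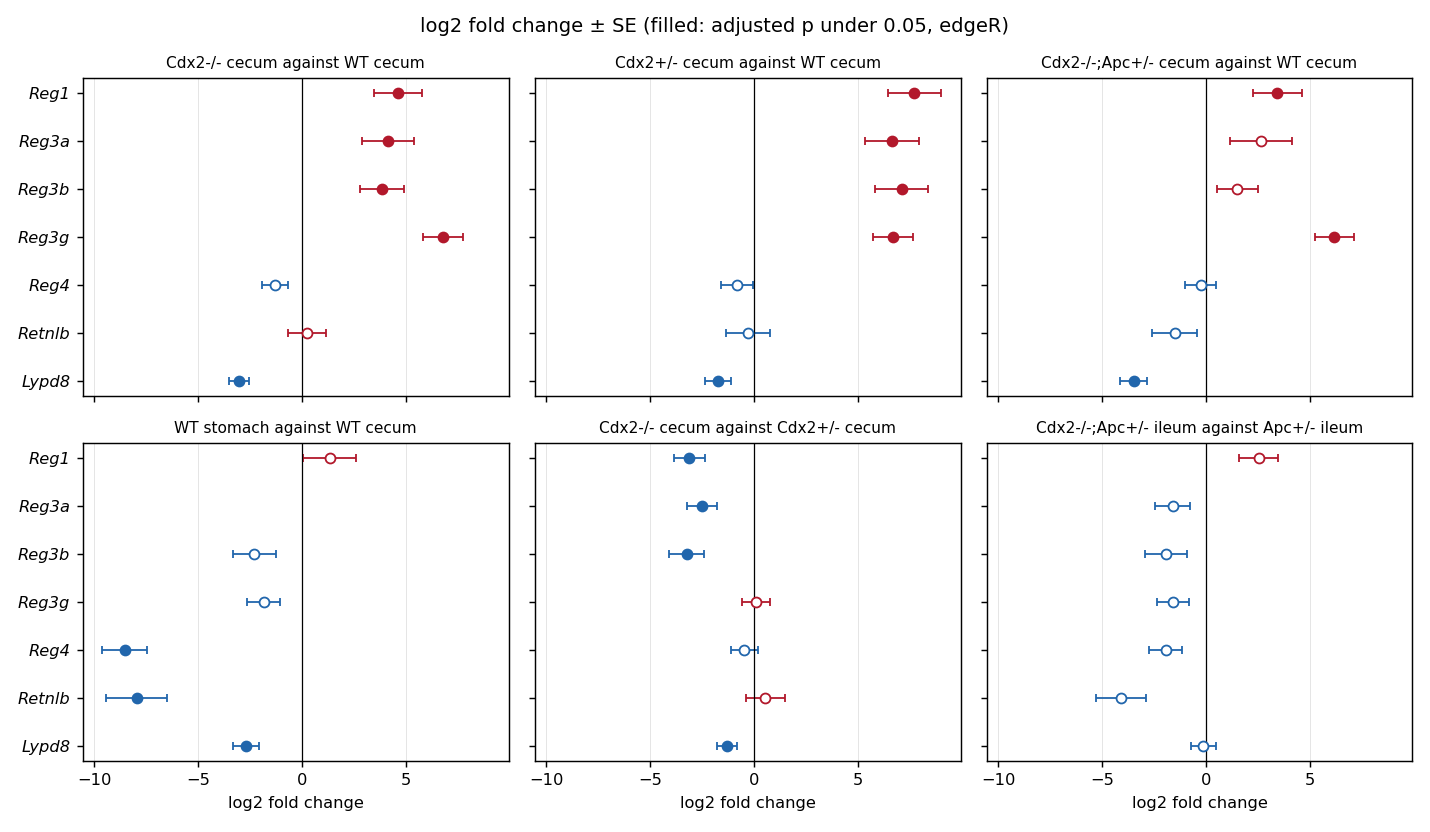
Log2 fold change of each member (x axis, bars ± SE) in 6 comparisons, 1 per panel; filled points passed edgeR's test at adjusted p under 0.05, and Reg3a is left out of the stomach panel, where no library of either group held more than 3 reads. Reg3g lies at 6.78, 6.69 and 6.17 in the Cdx2-/-, Cdx2+/- and Cdx2-/-;Apc+/- cecum against WT cecum, while Reg3b lies at 3.85, 7.09 and 1.51 in the same order.

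The untreated Cdx2+/- cecum had a different Reg profile, the cause of which was not tested. Comparisons with WT cecum share the same 3 WT libraries, so their values are set side by side only. In Cdx2+/- cecum Reg3b stood at 1214, 1557 and 3302 CPM, Reg3g at 520, 636 and 1657, and Reg1 at 57.3, 6.84 and 18.9. All 9 values lay above those of WT cecum, and Reg3b was above Reg3g in each library. Reg3b rose 136.5-fold (log2 change 7.09 ± 1.28, adjusted p = 0.0003), Reg3g 103.4-fold (6.69 ± 0.97, adjusted p = 3.6e-05) and Reg1 209.5-fold (7.71 ± 1.28, adjusted p = 0.00015). Reg3a reached 1.28, 1.72 and 3.28 CPM, 337 reads against 3, a ratio of 108.5 with a counting interval of 36.8 to 529. Lypd8 stood at 6074, 6695 and 6121 CPM, below every WT cecum library (log2 change -1.73 ± 0.61, adjusted p = 0.033). Reg4 (131, 204 and 308 CPM) overlapped with the WT cecum libraries, Retnlb (128, 100 and 94.0 CPM) lay within their range, and neither passed (adjusted p = 0.44 and 0.86). Of the 6 members other than Reg3a, 3 were again higher and 1 lower, beside 17.1% and 17.3% of all genes (34.4% either way), with a median of 3.20 against -0.05. The Lypd8 call was lost when WT replicate 1 or 2 or any one Cdx2+/- library was left out (log2 -1.37 to -1.78, adjusted p = 0.066 to 0.13).

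Set against each other, the Cdx2-/- and Cdx2+/- cecum differed in 3 of the 6 members other than Reg3a, all lower in Cdx2-/-. Of all genes, 20.6% were called lower and 19.7% higher (40.3% either way). Reg3b was 9.47-fold lower (log2 -3.24 ± 0.82, adjusted p = 0.0049) and its groups did not overlap. Reg1 was 8.65-fold lower (-3.11 ± 0.76, adjusted p = 0.0037) and Reg3a 5.66-fold lower (-2.50 ± 0.72, adjusted p = 0.012), with overlapping libraries. Reg3g differed by 0.09 ± 0.66 (adjusted p = 0.93) with a 95% interval of -1.20 to 1.37. Lypd8 was 2.47-fold lower (-1.30 ± 0.49, adjusted p = 0.042), a call lost without any one of set 1 replicates 2 or 3, set 2 replicates 4 or 5, or any Cdx2+/- library (adjusted p up to 0.11), with upper quartile scaling (-1.15, adjusted p = 0.061), with set 1 replicates 2 and 3 added up (-1.23, adjusted p = 0.081) and in set 2 alone (-0.90, adjusted p = 0.23). The Reg1 call was lost without Cdx2+/- replicate 1 (-2.01, adjusted p = 0.066) and in set 1 alone (-2.26, adjusted p = 0.080), and the Reg3a call without Cdx2+/- replicate 3 (-2.02, adjusted p = 0.068) and in set 2 alone (-1.95, adjusted p = 0.084).

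The balance between the paired lectins Reg3g and Reg3b was followed in every library as a ratio of reads, a measure chosen after the values were seen. It was 1.03, 0.799 and 0.406 in WT cecum and 0.429, 0.409 and 0.502 in Cdx2+/- cecum. It was 9.08, 5.75 and 5.74 in set 1 and 1.75, 3.15 and 5.11 in set 2 of the Cdx2-/- cecum, and 57.6, 9.98 and 9.71 in Cdx2-/-;Apc+/- cecum. Every library with both Cdx2 alleles targeted in the cecum held more reads of Reg3g than of Reg3b. Reads were not corrected for length: Reg3g and Reg3b have 522 and 525 coding bases, but 2114 and 1142 merged exon bases. Per kilobase of merged exons, set 2 replicate 4 stood at 200.6 CPM for Reg3g and 211.9 for Reg3b. In ileum the ratio was below 1: 0.825, 0.700 and 0.937 in Cdx2-/-;Apc+/- and 0.675, 0.431 and 0.628 in Apc+/-. In WT stomach it was 0.658, 1.96 and 5.75, on few reads.

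Because the measure was chosen after the values were seen, its differences are given as a description with no test. The mean log2 ratio was 2.70 higher in Cdx2-/- than in WT cecum and 3.34 higher than in Cdx2+/- cecum, and the libraries did not overlap in either case. It was 1.97 higher in Cdx2-/-;Apc+/- than in Cdx2-/- cecum, and 1.13 higher without Cdx2-/-;Apc+/- cecum replicate 1. Cdx2-/-;Apc+/- cecum was 4.68 above WT cecum. Set 2 differed from set 1 by -1.14, also without overlap.

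**Figure D3:**
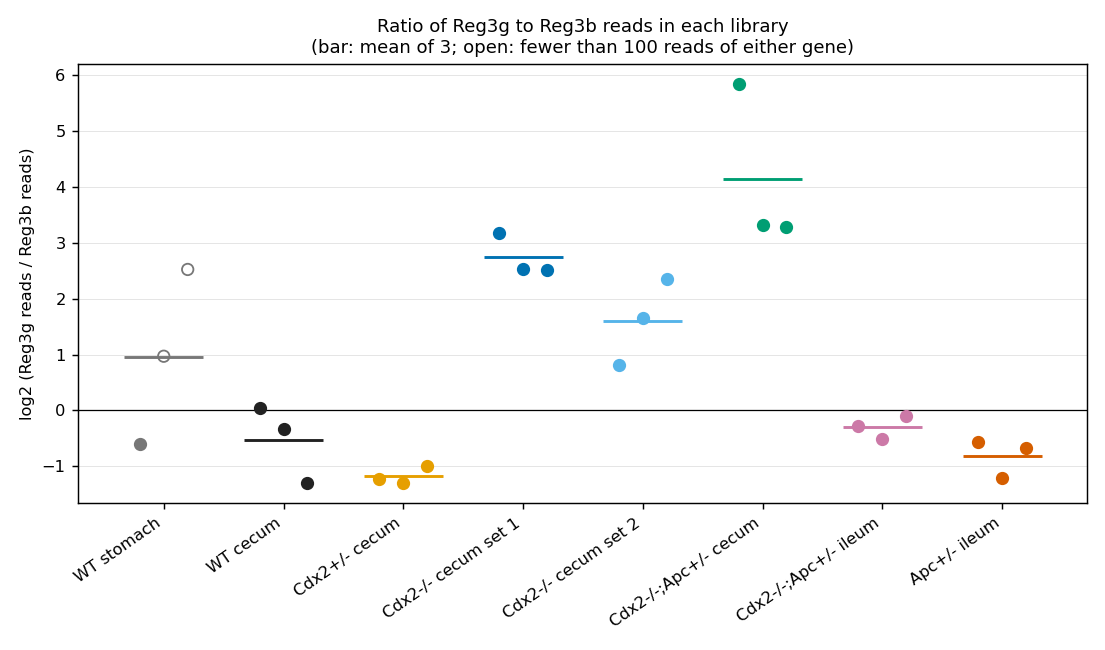
Log2 of the ratio of Reg3g to Reg3b reads in each library, by group; each point is 1 library, bars are means of 3, and open points had fewer than 100 reads of either gene. As plain ratios of reads, not corrected for length, all 9 cecum libraries with Cdx2-/- lie above 1 (1.75 to 57.6). All 3 Cdx2+/- cecum and all 6 ileum libraries lie below 1 (0.409 to 0.937).

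In the cecum with the Apc mutation as well, Reg3g and Reg1 rose and Lypd8 fell. Reg3g stood at 854, 750 and 355 CPM in Cdx2-/-;Apc+/- cecum, above all WT cecum libraries (log2 change 6.17 ± 0.95, adjusted p = 2.8e-05). Reg3b stood at 14.8, 75.2 and 36.6 CPM, overlapped with WT cecum and did not pass (1.51 ± 1.00, adjusted p = 0.22). Reg1 stood at 1.38, 0.902 and 1.96 CPM and rose (3.43 ± 1.19, adjusted p = 0.021), a call lost without WT replicate 2 or 3 or Cdx2-/-;Apc+/- replicate 3 (3.07 to 3.30, adjusted p = 0.056 to 0.075). Lypd8, at 2301, 1567 and 1767 CPM, fell 11.1-fold (-3.48 ± 0.65, adjusted p = 0.00021). Reg3a had 18 reads against 3 (ratio 6.59, counting interval 1.92 to 34.9). Reg4, at 312, 418 and 216 CPM, lay within the WT range (-0.26 ± 0.76), and Retnlb, at 41.9, 62.7 and 36.3 CPM, differed by -1.49 ± 1.08 (adjusted p = 0.26; -1.43 and 0.040 with only these groups in the fit). Of the 6 members other than Reg3a, 2 were higher and 1 lower, beside 26.6% and 26.1% of all genes (52.8% either way), with a median of 0.62 against 0.07.

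Against the Cdx2-/- cecum without the Apc mutation, no member passed edgeR's test, beside 8.43% of all genes (3.93% higher and 4.5% lower); 1 had an unadjusted p under 0.05, and DESeq2 called 1. Both were Reg3b, of which all 3 Cdx2-/-;Apc+/- libraries lay below all 6 Cdx2-/- libraries with a log2 difference of -2.34 ± 0.96 (adjusted p = 0.13; 0.041 with DESeq2, and 0.031 in edgeR with only the compared groups fitted). The difference for Reg3g was -0.61 ± 0.67 (95% interval -1.93 to 0.70) and for Lypd8 -0.44 ± 0.52 (-1.46 to 0.58). Without set 1 replicate 1, Reg4 passed as higher (1.91, adjusted p = 0.041).

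Between sets 1 and 2 of the Cdx2-/- cecum no member passed edgeR's test either, beside 10.5% of all genes (4.03% higher and 6.45% lower), with 0 members at an unadjusted p under 0.05 and 0 by DESeq2. Reg3g was lower in each set 2 library (424, 694 and 988 CPM) than in each set 1 library (1759, 1236 and 1254 CPM), with a difference of -1.01 ± 0.76 (adjusted p = 0.43). Reg3b stood at 209 ± 13.4 CPM in set 1 and 218.6 ± 24.5 in set 2 (SD, n = 3 each). Without set 1 replicate 1, Reg4 passed as higher in set 2 (2.74, adjusted p = 0.041).

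The ileum held high Reg levels with or without treatment. In Apc+/- ileum Reg3b stood at 5035, 4512 and 2024 CPM, Reg3g at 3397, 1943 and 1271, and Reg3a at 25.5, 12.9 and 9.69. These were the highest group means of all 8 sets for these 3 genes. In Cdx2-/-;Apc+/- ileum Reg3b stood at 376, 2500 and 165 CPM, Reg3g at 310, 1750 and 155, and Reg3a at 1.18, 12.4 and 2.17. Replicate 2, the library high in Fabp6, was the high one each time and overlapped with the Apc+/- libraries. Reg1 stood at 5.62, 7.94 and 129 CPM against 10.7, 5.48 and 8.67, its highest value being in replicate 3.

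No member passed edgeR's test between the ileum groups, beside 0.444% of all genes (0.395% higher and 0.0488% lower). At an unadjusted p under 0.05 there were 3 members, and DESeq2 called 1, Retnlb. Reg3g differed by -1.58 ± 0.77 (adjusted p = 0.53), Reg3b by -1.93 ± 1.01 (0.58), Reg3a by -1.60 ± 0.84 (0.58) and Reg1 by 2.52 ± 0.94 (0.32). Retnlb stood at 2.48, 15.2 and 2.21 CPM against 13.7, 314 and 12.8 and differed by -4.09 ± 1.21 (adjusted p = 0.16; 0.011 with DESeq2), and by -0.997 without Apc+/- replicate 2, the library at 314 CPM (adjusted p = 0.72). Reg4, at 121, 125 and 30.9 CPM, lay below all Apc+/- libraries at 200, 628 and 237 (-1.94 ± 0.79, adjusted p = 0.38). Without Cdx2-/-;Apc+/- ileum replicate 2, 2 members passed: Reg3g at -3.24 (adjusted p = 0.032) and Retnlb at -5.60 (adjusted p = 0.049). Lypd8 overlapped between the groups, at 1635, 2352 and 709 CPM against 2102, 1475 and 1542 (-0.12 ± 0.59, 95% interval -1.28 to 1.03).

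The cecal and ileal changes were compared directly, as Cdx2-/-;Apc+/- against WT in cecum minus Cdx2-/-;Apc+/- against Apc+/- in ileum; the cecal control lacks the Apc mutation. Reg3g differed by 7.75 ± 1.20 on the log2 scale (adjusted p = 9.9e-05) and Lypd8 by -3.35 ± 0.86 (adjusted p = 0.0057). Of the 6 members other than Reg3a, 1 was higher and 1 lower, beside 16.4% and 18.3% of all genes (34.7% either way). Reg3a (4.26 ± 1.69, adjusted p = 0.060) and Reg3b (3.44 ± 1.42, adjusted p = 0.068) did not pass, but both did without Cdx2-/-;Apc+/- ileum replicate 2 (5.91 and 5.34, adjusted p = 0.0075 and 0.0087). Without WT cecum replicate 3, Reg3b passed (4.06, adjusted p = 0.047), and Reg3a had 0 reads in the remaining WT cecum libraries, so no value is given for it. Reg1 passed without Cdx2-/-;Apc+/- ileum replicate 3 (3.70, adjusted p = 0.016).

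Within the Cdx2-/-;Apc+/- genotype, ileum exceeded cecum in 2 of the 6 members other than Reg3a, beside 9.59% of all genes called higher (16.2% either way). They were Reg1 (log2 5.07 ± 1.07, adjusted p = 0.0041) and Reg3b (4.59 ± 1.13, adjusted p = 0.010). Reg3a was called higher too (5.30 ± 1.06, adjusted p = 0.0034). Reg3g did not pass (0.18 ± 0.75, 95% interval -1.30 to 1.66). Retnlb and Reg4 lay below the cecum in every ileum library, at -2.82 ± 1.14 (adjusted p = 0.097) and -1.77 ± 0.79 (adjusted p = 0.13). Retnlb passed with DESeq2 (-2.84, adjusted p = 0.045) and without ileum replicate 2 (-4.33, adjusted p = 0.0499). The 3 calls ended with only these 2 groups in the fit (adjusted p = 0.076 to 0.099), Reg3b also without cecum replicate 1 or ileum replicate 2 (adjusted p = 0.051 and 0.075) and Reg1 without ileum replicate 3 (2.26, adjusted p = 0.050). In Apc+/- ileum against WT cecum, 3 of the 6 members other than Reg3a were higher (Reg3b 8.02, Reg3g 7.92 and Reg1 5.97 on the log2 scale) and Lypd8 was lower (-3.61 ± 0.66, adjusted p = 0.00013), beside 28.1% and 27.2% of all genes (55.4% either way). Reg3a had 2822 reads against 3, a ratio of 810.8 with a counting interval of 277 to 3934. The 2 groups differ in tissue and in the Apc allele.

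WT stomach served as the tissue without Cdx2 (0.437 to 1.52 CPM). Lypd8 stood there at 6546, 1668 and 1382 CPM, while Slc26a3, the chloride exchanger of colonic surface cells, stood at 2.24 to 6.07 CPM against 1975 to 3164 in WT cecum. Lypd8 was 6.53-fold lower than in WT cecum (log2 -2.71 ± 0.63, adjusted p = 0.0017). The secretory products were nearly absent: Reg4 at 1.83, 0.454 and 0.764 CPM (-8.54 ± 1.07, adjusted p = 3.3e-06) and Retnlb at 0.887, 0.492 and 0.218 (-7.96 ± 1.48, adjusted p = 0.00023). Reg3b stood at 8.06, 0.927 and 0.0728 CPM (-2.30 ± 1.04, adjusted p = 0.081) and Reg3g at 5.30, 1.82 and 0.419 (-1.85 ± 0.80, adjusted p = 0.067). Both passed without WT stomach replicate 1 (-4.89 and -3.02) and with DESeq2 (adjusted p = 0.040 and 0.032). Reg1 stood at 0.375, 0.284 and 0.328 CPM and did not pass (1.32 ± 1.27, adjusted p = 0.43). Of the 6 members other than Reg3a, 0 were higher and 3 lower, beside 22.1% and 21.6% of all genes (43.7% either way).

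Over the 8 sets, the group mean of Reg3g ran from 2.51 CPM in WT stomach and 9.06 in WT cecum to 653 in Cdx2-/-;Apc+/- cecum, 701.7 in set 2, 738 in Cdx2-/-;Apc+/- ileum, 938 in Cdx2+/- cecum, 1416 in set 1 and 2204 in Apc+/- ileum. That of Reg3b ran from 3.02 in WT stomach and 14.8 in WT cecum to 42.2 in Cdx2-/-;Apc+/- cecum, 209 in set 1, 218.6 in set 2, 1014 in Cdx2-/-;Apc+/- ileum, 2024 in Cdx2+/- cecum and 3857 in Apc+/- ileum. Neighbours in these orders overlapped in their libraries, apart from Cdx2-/-;Apc+/- cecum and set 1 for Reg3b, WT cecum and Cdx2-/-;Apc+/- cecum for Reg3g, and WT stomach and WT cecum for Reg3g. Among Reg reads, Reg3b held 62.4% to 64.7% in Cdx2+/- cecum, while Reg3g held 44.3% to 82.9% in Cdx2-/- and 58.3% to 72.2% in Cdx2-/-;Apc+/- cecum.

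Genes known to act upstream of the Reg genes were listed by role, with the lists' members named by smallest adjusted p. Counts for this and later lists stand beside shares over all tested genes. Against WT cecum these are 26.9% higher and 26.2% lower in Cdx2-/-, and 17.1% higher and 17.3% lower in Cdx2+/- cecum. Between the ileum groups 0.444% were called either way. Of 15 tested cytokines, 10 rose and 1 fell in Cdx2-/- against WT cecum (median log2 change 2.62). Il1a (4.19 ± 0.32), Il11 (5.83 ± 0.65) and the epithelial alarmin Il33 (5.62 ± 0.70) rose, and Il18 fell (-2.35 ± 0.16; adjusted p = 2.2e-09). Il22, the best known inducer of Reg3 genes, was too sparse to test, with 0 to 11 reads per set of 3 libraries. In Cdx2+/- cecum 8 of the 15 rose and 1 fell (median 1.85), Il1a (5.22), Il11 (6.12) and Il33 among them. Between the ileum groups none of the 15 passed.

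Receptors and signal carriers moved both ways. Of 23, 9 rose and 10 fell in Cdx2-/- against WT cecum (median -0.09); Tlr4, the lipopolysaccharide receptor, rose (2.82 ± 0.35), as did Il18r1 (4.26 ± 0.56) and the STAT3 feedback inhibitor Socs3 (2.54 ± 0.41), and the interleukin-17 receptor chain Il17rc fell (-2.81 ± 0.31). Il22ra1, the specific chain of the interleukin-22 receptor, named after its values were seen, fell from 89.3 to 119 CPM in WT cecum to 14.8 to 31.2 in Cdx2-/- cecum (-2.11 ± 0.37, adjusted p = 0.0001). In Cdx2+/- cecum it stood at 61.4 to 98.6 CPM, while Socs3 stood at 69.6 to 110.3 CPM against 7.51 to 11.9 in WT cecum. There 5 of the 23 rose and 4 fell (median 0.14). Extl3, a proposed receptor of Reg proteins, stood between 39.6 and 83.8 CPM in all 24 libraries.

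Other epithelial genes known to respond to microbes or interleukin-22 rose in part. Of 22, 11 rose and 6 fell in Cdx2-/- cecum (median 1.75): Cxcl5 (9.02 ± 1.28) and Cxcl1 (5.25 ± 0.55), which draw neutrophils, the iron-sequestering lipocalin Lcn2 (8.27 ± 0.82) and the lipopolysaccharide-binding protein Lbp (4.05 ± 0.41) rose most clearly. The acute-phase gene Saa1, chosen after its values were seen, fell (-3.73 ± 1.17, adjusted p = 0.012). In Cdx2+/- cecum 9 rose and 0 fell (median 1.14), led by Cxcl1 (5.90), Muc1 (7.21) and Lcn2 (4.25). Lcn2 stood at 0.503 to 1.05 CPM in WT cecum, 6.60 to 20.4 in Cdx2+/- and 74.5 to 502.9 in Cdx2-/- cecum. Between the ileum groups only the mucin Muc1 of this list passed (4.76 ± 0.80, adjusted p = 0.011).

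Among 13 other mucus-layer and antimicrobial proteins, 9 rose and 3 fell in Cdx2-/- cecum (median 4.29, or 3.28 with the 2 genes unseen in WT cecum set at a floor of 3 reads per library). The peptidoglycan-binding Pglyrp1 (3.82 ± 0.30), Wfdc2 (4.29 ± 0.63) and Bpifb1 (5.39 ± 0.80) rose, and the lectin Lgals3 fell (-2.26 ± 0.36). In Cdx2+/- cecum 6 rose and 0 fell. Among 12 Ly6/uPAR relatives of Lypd8, 8 rose and 1 fell in Cdx2-/- and 8 rose and 0 fell in Cdx2+/- cecum, opposite to Lypd8. Ly6d rose in both (7.25 ± 0.75 and 7.28 ± 0.77). Of the 12, Lypd2 and Pate4 had 0 reads in WT cecum and could not be called lower. Of the remaining Reg genes, Reg2 had at most 5 reads in any set, and Reg3d had 0 reads in both WT sets and 234 in Apc+/- ileum.

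**Figure D4:**
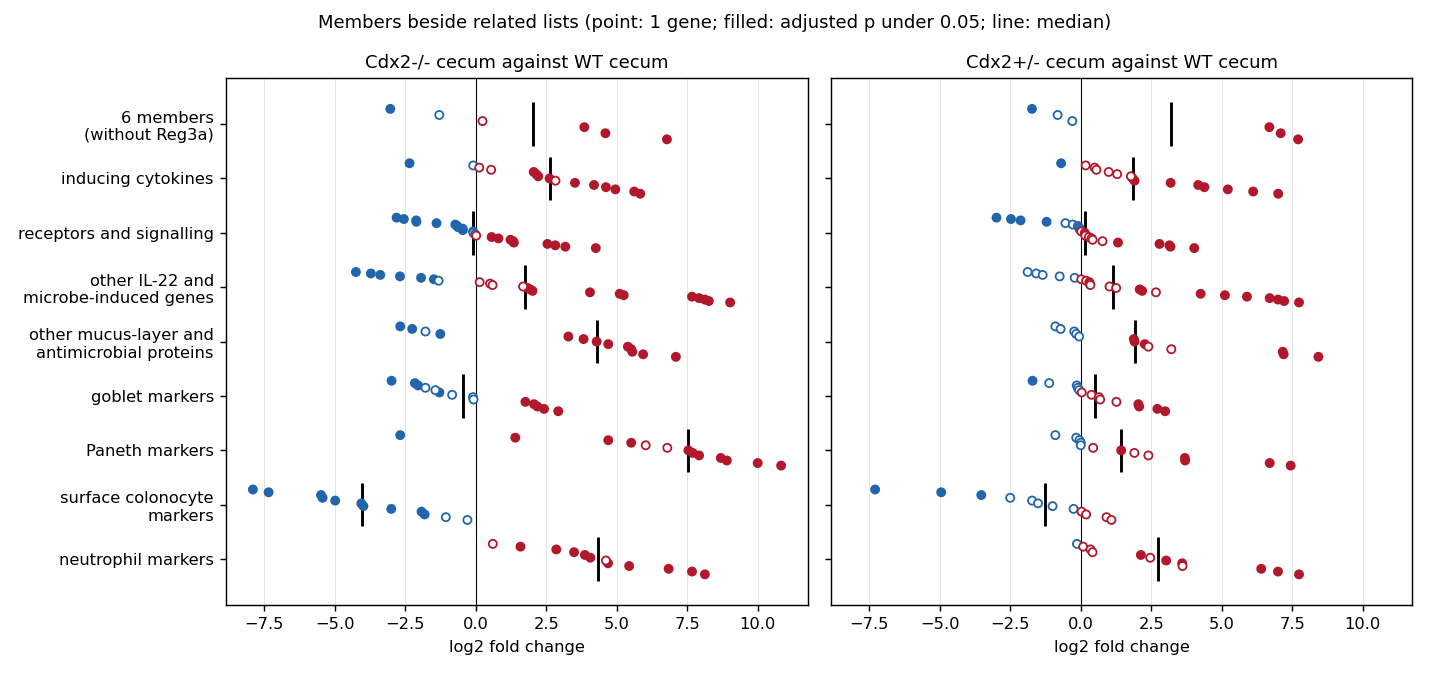
Log2 fold change of 6 members (without Reg3a) and of each gene in 8 lists (x axis), for Cdx2-/- and Cdx2+/- against WT cecum; each point is 1 gene, filled where adjusted p was under 0.05, and lines are list medians. In Cdx2-/- cecum the cytokines lie mostly to the right (10 of 15 called higher) and the surface colonocyte markers to the left (10 of 12 called lower). Over all tested genes 26.9% were called higher and 26.2% lower there.

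Markers of the cells that make or surround these proteins differed between the groups, not always in the members' direction. Their part in the members' changes was not tested, and the shares over all genes given above apply to these counts too. Surface colonocyte markers, the cells of Lypd8, fell in 10 of 12 genes in Cdx2-/- cecum (median -4.03), and their summed level ran from 22705 to 43541 CPM in WT, 8305 to 9992 in Cdx2+/- and 1277 to 3886 in Cdx2-/- cecum. Paneth cell markers, of cells that also make Reg3 lectins, rose in 10 of 13 and fell in 1 in Cdx2-/- cecum. Of the 13, Defa17, Defa5 and Defa26 had 0 reads in WT cecum and could only be called higher, not lower. The summed level of the list was 24.4 to 94.5 CPM in WT, 131 to 176 in Cdx2+/- and 271 to 1598 in Cdx2-/- cecum. In WT stomach it was 284 to 289 CPM. Lyz1 (4.70 ± 1.13) and Mmp7 (8.90 ± 1.13) rose in Cdx2-/- cecum, and in Cdx2+/- cecum 5 of 13 rose. Neutrophil markers rose in 10 of 12 in Cdx2-/- and 6 of 12 in Cdx2+/- cecum, S100a8 (8.13 and 7.74) and S100a9 among them, both also on the microbe-response list. Their sums were 13.4 to 16.2 CPM in WT, 25.2 to 129 in Cdx2+/- and 72.6 to 299 in Cdx2-/- cecum. Of the 12, Ngp had 0 reads in WT cecum and could not be called lower.

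Goblet cell markers, of the cells that make Retnlb, were split: 5 of 14 rose and 4 fell in Cdx2-/- cecum (median -0.47), with Muc2 at -0.08 ± 0.69 (adjusted p = 0.93) and Clca1 fallen (-2.99 ± 0.74). Gastric markers rose in 9 of 17 and fell in 1 in Cdx2-/- and rose in 11 of 17 in Cdx2+/- cecum, with summed levels of 12.8 to 1163 CPM in WT, 36753 to 38349 in Cdx2+/-, 7252 to 28072 in set 1 and 3461 to 7980 in set 2. Pancreatic acinar markers, of another tissue that makes Reg1, rose in 4 and fell in 2 of 13 tested genes in Cdx2-/- cecum and rose in 1 in Cdx2+/- cecum. Their sums were 779 to 1186 CPM in WT, 841 to 1614 in Cdx2+/- and 166 to 1259 in Cdx2-/- cecum, and 23151 to 32580 in WT stomach. Of the 19 listed, Cpa1 and Amy2a5 had 0 reads in every library, and Try5 had 0 in WT cecum. The defining marker Pnlip stood at 0 CPM in WT cecum and 0.0394 to 0.237 in WT stomach. Zg16 is also on the goblet and mucus-layer lists. The sums are therefore not a measure of acinar tissue. The aryl hydrocarbon receptor list held Ahr and Arnt beside targets of the receptor, which bnaphthoflavone is known to induce. The targets Cyp1a1 and Cyp1a2 did not pass the filter and were not tested. Of the 8 tested genes, 3 rose and 4 fell in the treated Cdx2-/- cecum, and 3 rose and 2 fell in the untreated Cdx2+/- cecum.

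The remaining marker lists are set beside the same shares over all genes, and some of their counts lie near those shares. Ileal enterocyte markers rose in 7 of 12 in Cdx2+/- cecum, and rose in 5 and fell in 4 in Cdx2-/- cecum. Their sums were 2238 to 3911 CPM in WT, 4154 to 9655 in Cdx2+/- and 806 to 1858 in Cdx2-/- cecum, 4103 to 7079 in Apc+/- ileum and 888 to 19203 in Cdx2-/-;Apc+/- ileum. Squamous markers rose in 14 of 14 in Cdx2+/- and 6 in Cdx2-/- cecum, with sums of 4.80 to 9.69 CPM in WT, 52.9 to 1167 in Cdx2+/- and 25.3 to 57.5 in Cdx2-/- cecum. Smooth muscle markers fell in 10 of 11 in Cdx2+/- and 1 in Cdx2-/- cecum, with sums of 1521 to 4705 CPM in WT, 259 to 760 in Cdx2+/- and 1657 to 3547 in Cdx2-/- cecum. Lymphoid markers rose in 2 of 12 in Cdx2+/- cecum, and rose in 5 and fell in 1 in Cdx2-/- cecum, with sums of 93.1 to 213 CPM in WT, 416.5 to 610 in Cdx2+/- and 236 to 428 in Cdx2-/- cecum. In Cdx2-/- cecum, 10 of 13 enteroendocrine markers fell, 5 of 10 tuft and 3 of 10 B and plasma cell markers rose, and of 13 macrophage markers 8 rose and 1 fell. In Cdx2+/- cecum these counts were 4 fallen, 1 risen, 1 risen, and 1 risen and 1 fallen.

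Likeness of pattern was measured as Pearson's r of log2 CPM over the 24 libraries, among 13649 genes, as a description; libraries share tissue, genotype and depth. Members most alike were Reg3a and Reg3b (0.88), Reg3b and Reg3g (0.87), Reg4 and Retnlb (0.77) and Reg1 and Reg3a (0.77), while Lypd8 and Reg3g gave -0.32. Closest to Reg3g were Slc5a9 (0.96), Slc4a11 (0.96) and Il1rn (0.95), and closest to Reg3b were Spink1 (0.95), Slc7a9 (0.94) and Clca4b (0.92). Reg3a was closest to Nptx2 (0.92), Myrfl (0.92) and Treh (0.91), and Reg1 to Fam84a (0.90), Mafg (0.88) and Tle1 (0.87). Reg4 was closest to Cd38 (0.94), Efcab5 (0.93) and the goblet mucin Muc2 (0.93), Retnlb to Irak4 (0.87), Nr5a2 (0.86) and Cyp4f40 (0.85), and Lypd8 to Irf7 (0.95), Ifih1 (0.95) and Nat2 (0.94).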

How the data were processed

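Total RNA of dissected mouse tissue, extracted in Trizol, was made into TruSeq mRNA libraries, per the labels' protocols. The deposited values are raw read counts per gene of 24 libraries; CASAVA, TopHat2 2.0.11, HTSeq 0.5.3p3 and GRCm38 are named in the submitters' processing notes, and no source used here gives the annotation release or strand setting. Entries that name no gene held 28.1% to 41.0% of reads and were left out. Counts were filtered (filterByExpr), TMM-normalised and fitted in 1 model of all 8 groups with edgeR 4.0.16 (R 4.3.3, quasi-likelihood F test, no block); p-values were adjusted by Benjamini-Hochberg over 20502 genes, called below 0.05, and each SE is the log2 change divided by the square root of F. The method was tested on simulated counts. DESeq2 1.42.0, RLE and upper quartile scaling, no filter, only the compared groups, each Cdx2-/- set alone, a replicate block and leaving out each library were alternatives. Named genes are the 7 members, the 3 closest to each by correlation, up to 4 of each list by smallest adjusted p and defining markers; exceptions are stated. Members and lists were chosen with earlier results of these data known. The 95% intervals of log2 differences are normal intervals from the SE, narrower than the F test would give. Counting intervals cover counting error only.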

Additional observations from a re-analysis of the deposited data

Results flagged for a closer look

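Among the 6 Cdx2-/- cecum libraries, 2 members had a single high library, with a gap to its nearest neighbour above Dixon's 95% critical value for 6 samples; chance alone flags about 1 in 20 groups. Reg3a was highest at 1.286 CPM, in set 2 replicate 4, against 0.131 to 0.364 CPM in the other libraries. Lypd8 was highest at 6777 CPM, in set 2 replicate 6, against 1491 to 2788 CPM in the others. The interaction test called 2 of the 6 members other than Reg3a as changing differently in cecum and ileum, beside 34.7% of all genes. Reg3g differed by 7.75 and Lypd8 by -3.35 on the log2 scale, and the cecal control lacks the Apc mutation.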

How the results depend on the processing

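Of 1090 results for single members under alternatives, 1004 kept their direction and their side of the threshold, 29 lost the threshold, 25 gained it and 32 turned in sign, none of them called with the main settings. Counts of members called here are of all 7, Reg3a included. The cause of these changes was not tested, beyond the smaller number of libraries where some were left out. With only the compared groups in the fit, 1 member in place of 0 was called for Cdx2-/-;Apc+/- against Cdx2-/- cecum and 0 in place of 3 for Cdx2-/-;Apc+/- ileum against cecum. DESeq2 called 1 in place of 0 for Cdx2-/-;Apc+/- against Cdx2-/- cecum and for the ileum groups, 5 in place of 3 for stomach and 4 in place of 2 for the difference between cecum and ileum. With set 2 alone, 2 in place of 4 were called for Cdx2-/- against Cdx2+/- cecum. Leaving out each library in turn gave 5 to 6 members for Cdx2-/-, 4 to 5 for Cdx2+/-, 3 to 5 for stomach and 2 to 3 for Cdx2-/-;Apc+/- cecum, each against WT cecum. It gave 0 to 1 for Cdx2-/-;Apc+/- against Cdx2-/- cecum and for set 2 against set 1 (1 without set 1 replicate 1), and 2 to 4 for Cdx2-/- against Cdx2+/- cecum (2 without Cdx2+/- replicate 1 or 3). It gave 0 to 2 for the ileum groups and 2 to 4 for the difference, with the libraries named beside those results.

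With set 2 alone the sign turned for Retnlb against WT cecum (-0.27) and for Reg3g (-0.42) and Reg4 (0.015) against Cdx2+/- cecum. The following ranges of log2 differences, over fits without 1 library each, cross 0. Against WT cecum, Retnlb ranged from -0.84 to 0.55 in Cdx2-/- cecum and from -0.67 to 0.011 in Cdx2+/- cecum, and Reg4 from -1.22 to 0.12 in Cdx2+/- and from -0.67 to 0.68 in Cdx2-/-;Apc+/- cecum. In Apc+/- ileum against WT cecum, Reg4 ranged from -0.79 to 0.85 and Retnlb from -3.32 to 0.31, and Retnlb passed without Apc+/- ileum replicate 2 (adjusted p = 0.015). Cdx2-/- against Cdx2+/- cecum gave -0.20 to 0.79 for Reg3g and -0.54 to 0.78 for Retnlb. Cdx2-/-;Apc+/- against Cdx2-/- cecum gave -0.63 to 0.067 for Lypd8. Set 2 against set 1 gave -0.64 to 1.55 for Reg3a, -0.017 to 0.14 for Reg3b and -0.21 to 1.17 for Lypd8. Between the ileum groups Reg1 ranged from -0.28 to 3.05 and Lypd8 from -0.54 to 0.23. Cdx2-/-;Apc+/- ileum against cecum gave -1.49 to 0.66 for Reg3g and -0.68 to 0.086 for Lypd8, and the difference between cecum and ileum gave -0.49 to 4.11 for Retnlb.

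Replicate numbers did not pair the samples: deviations of same-numbered libraries correlated at -0.298 to 0.33, and in no comparison did every pair exceed 0.1. With the replicate number as a block, fitted on 21 libraries because set 2 shares no number with another group, 3 in place of 4 members were called for Cdx2-/- against Cdx2+/- cecum (without Reg1), 4 in place of 3 for Cdx2-/-;Apc+/- ileum against cecum (with Retnlb) and 3 in place of 2 for the difference (with Reg3a). The sign of Lypd8 in Cdx2-/-;Apc+/- against Cdx2-/- cecum turned (0.020).

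Counts over all genes moved by more than 1.5 times in 5 comparisons. For Cdx2-/-;Apc+/- against Cdx2-/- cecum, 1729 genes became 1053 with only those groups, 4465 with set 1 alone, 2 with set 2 alone, 4326 with the block, 1010 with set 1 replicates 2 and 3 added up (an alternative chosen after seeing the data) and 280 without Cdx2-/-;Apc+/- cecum replicate 2. For the ileum groups, 91 became 1 with only those groups, 407 with DESeq2, 583 without Cdx2-/-;Apc+/- replicate 2 and 3 without Apc+/- replicate 1. For Cdx2-/-;Apc+/- ileum against cecum, 3321 became 0 with only those groups and 1620 without cecum replicate 2. For Cdx2-/- against Cdx2+/- cecum, 8253 became 5340 with set 1 alone and 5363 with the block. For set 2 against set 1, 2148 became 970 with those replicates added up and 665 without set 2 replicate 5. Depth limits Reg3a in WT tissue, where no library held more than 3 reads.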
